A study of Mus musculus with 672 samples.

Results

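The 37 genes of the mouse mitochondrial genome were followed through 3 early lymphoid progenitor populations with and without Mbd3. They were found in the count table as every gene whose symbol starts with mt-, which gave 13 protein genes, 2 ribosomal RNA (rRNA) genes and 22 transfer RNA (tRNA) genes out of 46078 genes. Bone marrow from leg bones (femur and tibia) of 4 mice aged 7 weeks, strain C57BL6/129Ola, was sorted into single cells. Both control mice (18218 and 18220) were Mbd3flox/flox and both null mice (18217 and 18219) were Mbd3del/del. Mbd3 encodes a subunit of the NuRD chromatin remodelling and deacetylase complex, and the labels do not name what deletes its alleles or in which cells. Each mouse gave 48 LMPPs (lymphoid-primed multipotent progenitors), 84 ALPs (all-lymphoid progenitors) and 36 BLPs (the B cell-biased stage), and the gate common to them was Lin- Sca-1+ c-Kit+ Flt3hi B220-. LMPPs lacked surface IL-7Ra, ALPs had IL-7Ra without Ly6D, and BLPs had both. The 561 cells kept had 50000 or more nuclear counts and 1000 or more nuclear genes, a mitochondrial share of up to 20% and a spike-in share of up to 50%, and 111 cells fell outside these limits. The mitochondrial limit bounds the quantity described here, and it alone removed 4 cells.

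Mitochondrial DNA is a small circle that is transcribed from both strands into long precursors, which are cut mainly at the tRNAs into separate RNAs. Its protein genes encode core subunits of respiratory chain complexes I, III, IV and V, and its rRNAs form the ribosome that translates them inside the organelle. The other proteins of that system, such as the polymerase POLRMT and the DNA-packing factor TFAM, come from nuclear genes. Blood stem cells rely little on oxidative phosphorylation and their progeny rely on it more.

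Kept cells of a mouse and population were summed into 12 libraries, with 50003971 to 130330116 nuclear counts and 3510687 to 7658427 mitochondrial counts each. Il7r, the IL-7 receptor chain, ran from 3.72 to 26.7 CPM (counts scaled to a common library total) in LMPP and from 546 to 909 CPM in ALP and BLP libraries. Ly6d was at 36.2 to 133 CPM in ALPs and 1501 to 3749 CPM in BLPs. Mbd3 lay between 48.1 and 191 CPM in control and between 0.189 and 24.7 CPM in null libraries. The highest null value was that of an LMPP library. Null means were 12.4 ± 17.3 CPM in LMPPs (SD, n = 2 mice), 1.62 ± 1.79 in ALPs and 0.45 ± 0.16 in BLPs. Of the 111 cells outside the limits, 86 were ALPs of mice 18219 and 18220. In the table's header, cells of mice 18217 and 18218 alternate, and so do cells of 18219 and 18220. Each pair of mice thus holds 1 control and 1 null mouse.

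The level that can be read for a mitochondrial gene depends on how much of it is repeated in the nuclear genome. In the GENCODE annotation of GRCm38, a run of unprocessed pseudogenes on chromosome 1 holds copies of mt-Nd4, mt-Nd4l, mt-Nd3, mt-Co3, mt-Atp6, mt-Co2 and the end of mt-Co1. Gm28661 matched mt-Co2 over 681 bases with 0 mismatches, and Gm28437 matched mt-Co3 over 783 bases with 0 mismatches. Gm10925 likewise matched mt-Atp6 over 678 bases without a mismatch, and Gm10222 matched mt-Nd4l over 294 bases. Gm28438 differed from mt-Nd3 at 1 of 345 bases. Gm28439 was identical to the first 876 bases of mt-Nd4 and does not reach the rest of that gene. Gm29216 covered 492 bases at the end of mt-Co1 with 6 mismatches. The first 60 bases of mt-Co2 (chrM:7013-7072, plus strand) and of its copy (chr1:24615506-24615565, minus strand) are shown because a read from either has the same letters, and no base is in capitals.
mt-Co2: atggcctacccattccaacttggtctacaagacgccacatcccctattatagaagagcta
Gm28661: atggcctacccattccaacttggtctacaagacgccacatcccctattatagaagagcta
Bases 1054 to 1113 of mt-Co1 (chrM:6381-6440, plus strand) are set beside the first 60 bases of its copy (chr1:24616138-24616197, minus strand), with all 6 mismatches in capitals. They lie at the edge of the copy, and the bases after them are the same in both.
mt-Co1: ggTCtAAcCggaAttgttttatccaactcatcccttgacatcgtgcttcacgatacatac
Gm29216: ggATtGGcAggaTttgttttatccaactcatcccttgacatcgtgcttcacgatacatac

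Counted in stretches of 50 bases, the whole of mt-Co2 was shared with an annotated nuclear copy (100%), as was 99.9% of mt-Co3, 99.5% of mt-Atp6, 98.8% of mt-Nd4l and 98.0% of mt-Nd3. For mt-Nd4 the shared part was 62.2% and for mt-Co1 it was 51.1%, the latter including Gm13340 on chromosome 2. It was 8.19% for mt-Nd2, 7.61% for mt-Nd5 and 1.04% for mt-Rnr2, whose match is the annotated gene Gm20594. No stretch of mt-Rnr1, mt-Nd1, mt-Nd6, mt-Cytb, mt-Atp8 or any tRNA was shared with an annotated copy. Sequence between the annotated copies was not searched, so unannotated copies of tRNA genes that lie inside the run would be missed. The place between Gm28661 and Gm10925, where the counterpart of mt-Atp8 would lie, carries no annotated copy, and its sequence was not used here.

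Per kilobase of gene, mt-Rnr2, the large ribosomal RNA, stood highest at 23302 ± 2668 CPM (mean ± SD, n = 12 libraries of 4 mice). It was followed by mt-Cytb, the mitochondrial subunit of complex III, at 5635 ± 411 and mt-Co1, the catalytic subunit of complex IV, at 4575 ± 265 CPM per kilobase. Next came mt-Nd1 at 4257 ± 776 and the small ribosomal RNA mt-Rnr1 at 2070 ± 385 CPM per kilobase. The complex I genes mt-Nd5 (1469 ± 197), mt-Nd6 (1040 ± 268), mt-Nd4 (996 ± 175) and mt-Nd2 (863 ± 214) closed the upper group of 9 genes. The protocol primes on poly(A) tails, so this is an order of read counts. The part of priming in it, and in the rRNA share, was not tested.

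The other 6 protein genes were far lower in every library. The complex V genes mt-Atp6 and mt-Atp8 stood at 60.1 ± 17.3 and 10.8 ± 1.29 CPM per kilobase. The complex IV genes mt-Co3 and mt-Co2 stood at 39.0 ± 14.4 and 25.9 ± 6.87, and the complex I genes mt-Nd3 and mt-Nd4l at 9.30 ± 1.48 and 4.65 ± 1.64 CPM per kilobase. Between the lowest of the 9 and the highest of these 6, mt-Nd2 exceeded mt-Atp6 by 8.35-fold to 22.5-fold within a library. Of the 6 genes, 5 are those over 90% shared with annotated nuclear copies. For mt-Atp8 no annotated copy was found, but the stretch of chromosome 1 where one would lie was not read. The level per cell of all 6 is therefore uncertain, and how much of their low count comes from shared sequence was not tested.

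**Figure D1:**
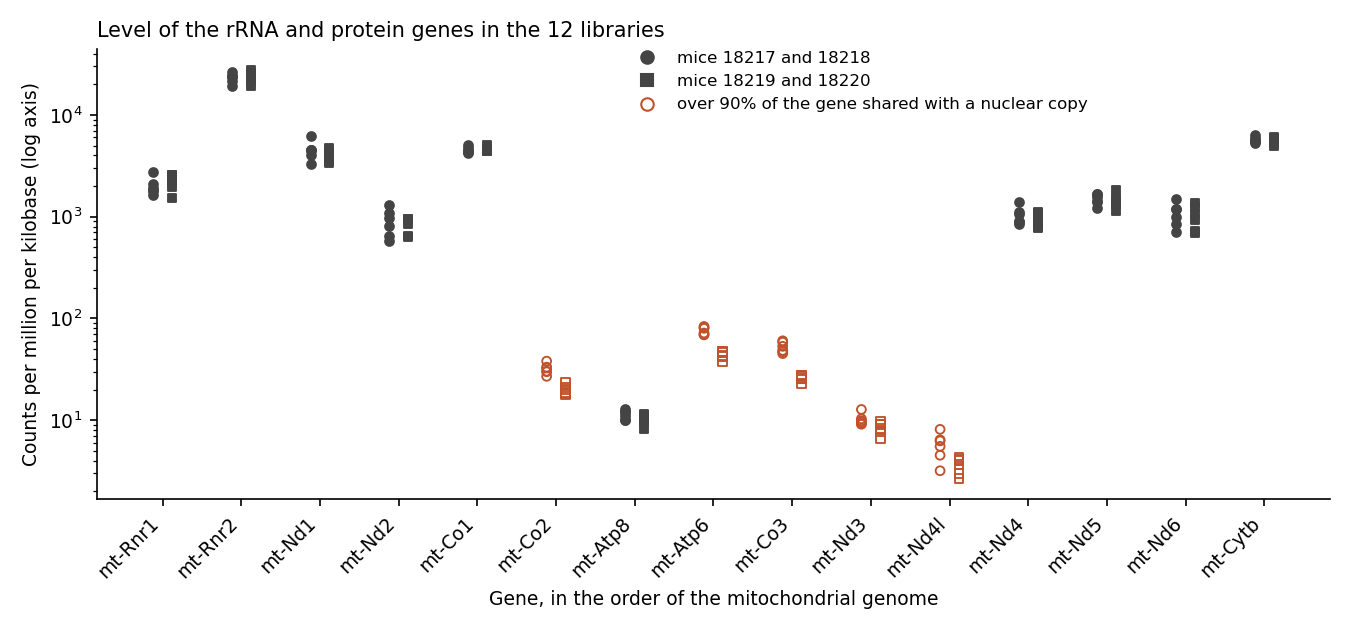
CPM per kilobase (log axis) of the 2 rRNA and 13 protein genes, in genome order, with 1 point per library (circles for mice 18217 and 18218, squares for 18219 and 18220). Open orange symbols mark the 5 genes over 90% shared with nuclear copies. The 9 filled genes other than mt-Atp8 lie above the low group, and mt-Co2, mt-Atp6 and mt-Co3 are higher in the circles than in the squares.

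Several neighbours in this order did not separate. The range of mt-Co1 overlapped that of mt-Nd1, and mt-Co1 was the higher of the pair in 9 of 12 libraries. For mt-Nd6 against mt-Nd4 it was 6 of 12 libraries, with ratios from 0.842 to 1.23. By contrast mt-Cytb exceeded mt-Co1 in 12 of 12 libraries, by 1.05-fold to 1.48-fold. That order rests on dividing by the full gene: per 1000 stretches without a nuclear match, mt-Co1 stood at 9669 CPM and mt-Cytb at 5887 CPM. On the same scale mt-Nd4 stood at 2733 CPM, above mt-Nd5 (1633), mt-Nd6 (1148) and mt-Nd2 (986).

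Reads were also counted to the copies on chromosome 1. Over the kept cells, mt-Atp6 had 41822 reads and Gm10925 had 34086. The count was 31813 for mt-Co3 and 37887 for Gm28437, and 18337 for mt-Co2 and 12112 for Gm28661. The copy had 0.815, 1.19 and 0.661 times the reads of its gene in these 3 pairs, whose sequences cannot be told apart. The summed level of mt-Co2, mt-Atp6 and mt-Co3 was 102 to 130 CPM in the 6 libraries of mice 18217 and 18218 and 58.6 to 68.0 CPM in the 6 libraries of mice 18219 and 18220. Their 3 copies ran from 88.9 to 117 CPM in the first pair of mice and from 52.1 to 68.0 CPM in the second. The ranges did not overlap, and the ratio of means was 1.78 for the genes and 1.70 for the copies. The sum of mt-Nd1, mt-Nd5 and mt-Cytb, which have little or no shared sequence, overlapped between these pairs of mice, with a ratio of 1.06. Each pair of mice holds both genotypes, so this split does not follow the genotype.

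By class, rRNA made up 62.5% ± 2.34 of mitochondrial counts (SD, n = 12 libraries), protein genes 37.4% ± 2.33 and tRNAs 0.0699% ± 0.0162. A single gene, mt-Rnr2, accounted for 59.3% ± 2.22. Complex I genes (7) held 15.4% ± 1.52, the complex III gene mt-Cytb 10.4% ± 0.661 and the 3 complex IV genes 11.6% ± 1.47. The 2 complex V genes held 0.0696% ± 0.0189, which carries the uncertainty above. The 9 genes on the light strand, mt-Nd6 and 8 tRNAs, together held 0.912% ± 0.159. Whether counting used strand is not stated, and reads from RNA opposite a light-strand gene cannot be told here from its own.

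The tRNA genes were low. As background, tRNAs are short and end in CCA, while this protocol primes on poly(A) tails. The part of this in their low counts was not tested. The highest was mt-Tp at a mean of 14.3 CPM (7.66 to 22.6), followed by mt-Ts1 at 4.47, mt-Tq at 4.12, mt-Tl1 at 3.84, mt-Tc at 3.25 and mt-Ta at 3.11 CPM. Of the 22, 16 passed the filter on low counts. The other 6 had 1 read (mt-Th), 2 reads (mt-Td), 4 reads each (mt-Tg, mt-Tk and mt-Tw) and 42 reads (mt-Ty) over all kept cells. The 2 rRNA and all 13 protein genes passed.

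Protein genes also differ in how they end, and the last 30 bases of 4 of them are shown for that. The length of mt-Cytb, mt-Nd4 and mt-Co3 leaves a single T after the last full codon, which the poly(A) tail is known to complete to a stop codon. In mt-Nd6 the stop codon is encoded. The final T or codon is in capitals, from chrM:15259-15288 (plus), chrM:11515-11544 (plus), chrM:9361-9390 (plus) and chrM:13552-13581 (minus).
mt-Cytb: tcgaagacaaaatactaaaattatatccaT
mt-Nd4: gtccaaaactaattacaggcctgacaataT
mt-Co3: tatacgtctccatttattgatgaggatctT
mt-Nd6: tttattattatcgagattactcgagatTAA
The end of mt-Nd6 overlaps that of mt-Nd5 on the other strand, at chrM:13552-13565, and reads there cannot be assigned without strand.

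In single cells, mitochondrial counts were a small and fairly even part of the total. The mitochondrial share of gene counts in kept cells ran from 1.92% to 14.4%, with a median of 6.17%. A kept cell had a median of 95798 mitochondrial counts (1387 to 694411) and a median of 22 detected mitochondrial genes (12 to 30). All 9 upper genes were read in 561 of 561 cells. Within a library the coefficient of variation of mitochondrial counts per 100 nuclear counts was 22.9% to 43.6%. Cells with more nuclear counts had a lower ratio: Spearman's rho within a library ran from -0.685 to -0.0871 over 34 to 79 cells. Both values come from the same cell and share its depth, so this is a description only.

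Relative to nuclear counts, mitochondrial counts of the median kept cell were higher in ALPs than in LMPPs and higher again in BLPs. The median cell had 5.83 ± 0.390 mitochondrial counts per 100 nuclear counts in LMPPs (SD, n = 4 mice), 6.81 ± 0.475 in ALPs and 7.30 ± 0.714 in BLPs. In control mice 18218 and 18220 the medians were 5.76 and 5.57 in LMPPs, 6.39 and 6.46 in ALPs, and 6.78 and 6.60 in BLPs. In null mice 18217 and 18219 they were 5.59 and 6.41 in LMPPs, 6.98 and 7.41 in ALPs, and 7.80 and 8.02 in BLPs. By these medians each of the 4 mice was higher in ALPs than in LMPPs and higher again in BLPs. The steps were 1.17-fold and 1.07-fold, each with p = 0.13 by a two-sided exact permutation test of paired signs, which is the smallest p that 4 pairs allow (adjusted p = 0.312 over the 5 comparisons of this ratio). Taken as a ratio of summed counts, the ALP to BLP difference was 0.0194 on the log2 scale in place of 0.0982, and control mouse 18220 turned, from 6.67 in ALPs to 6.12 in BLPs per 100 nuclear counts. Over all cells that difference turned to -0.644.

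By medians over kept cells, both null mice lay above both control mice in ALPs and in BLPs, and the mice overlapped in LMPPs. The null to control ratio was 1.06 in LMPPs with overlapping mice, 1.12 in ALPs and 1.18 in BLPs. The exact two-sided permutation test gave p = 0.333 in ALPs and BLPs, the smallest that 2 mice against 2 allow, and p = 0.667 in LMPPs. The ALP difference of 0.161 on the log2 scale was 0.0838 as a ratio of summed counts, and it turned to -0.953 over all cells, with those outside the limits. Null cells were also shallower, with lower median nuclear counts than control cells in each population. In BLPs the median nuclear count per cell was 1230630 and 1076940 in null mice against 2055700 and 2264780 in controls. Among cells of 500000 to 3000000 nuclear counts, a range chosen after seeing the data, ALP medians were 6.64 and 6.29 in controls and 6.97 and 7.74 in null mice. BLP medians in these cells were 7.04 and 7.29 in controls and 7.80 and 8.02 in null mice. The groups did not overlap in ALPs or BLPs, and the log2 difference in BLPs was 0.143 in place of 0.242, while in LMPPs it was -0.0135 in place of 0.0790. This range did not equalise depth: median nuclear counts of BLPs within it were 1509500 and 1955800 in controls and 1243500 and 1076900 in null mice.

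Markers of other lineages differed with genotype beside this ratio, in both directions. All 5 early B genes (Ebf1, Pax5, Cd79a, Vpreb1 and Igll1) were higher in both null than in both control ALP libraries, with a summed level of 281 to 532 against 23.9 to 41.0 CPM. Of these genes, Vpreb1 and Igll1 did not exceed 3.39 and 4.76 CPM in any ALP library. Of 4 myeloid genes 2 were higher in null mice without overlap in each population. Their summed level was 819 to 932 CPM in null ALPs against 217 to 433 CPM in control ALPs, and 295 to 353 against 67.1 to 151 CPM in BLPs. In the other direction, both genes of the mature B and plasma list (Ms4a1 and Sdc1) were lower in both null mice in each population, with a summed level of 20.4 to 20.6 against 77.8 to 87.3 CPM in LMPPs, 86.4 to 93.5 against 105 to 219 CPM in ALPs and 92.2 to 130 against 174 to 205 CPM in BLPs. Nearly all of that level was Sdc1 (20.4 to 219 CPM), while Ms4a1 did not exceed 0.411 CPM in any library. Both plasmacytoid dendritic genes were lower in null ALPs, at 130 to 176 against 259 to 353 CPM. Of 6 genes that mark the gate, 4 were lower in null LMPPs, 2 in null ALPs and 3 in null BLPs. In the same order, 0, 1 and 1 of these 6 were higher in null mice. Among all tested genes, null mice lay above controls without overlap for 16.2% in LMPPs, 17.1% in ALPs and 16.3% in BLPs, and below them for 17.8%, 17% and 17.1%. The summed erythroid level did not exceed 45.9 CPM in any library. It was 44.8 to 45.9 CPM in null against 9.26 to 30.6 CPM in control LMPPs, with 1 of 5 genes higher. In ALPs it was 0.735 to 5.86 against 12.9 to 34.2 CPM, with 1 of 5 genes lower, and in BLPs it overlapped. The summed T and NK level was 0.9 to 7.35 CPM in null against 18.5 to 32.9 CPM in control BLPs. In LMPPs and ALPs that level overlapped. The part of these markers in the ratio was not tested.

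**Figure D2:**
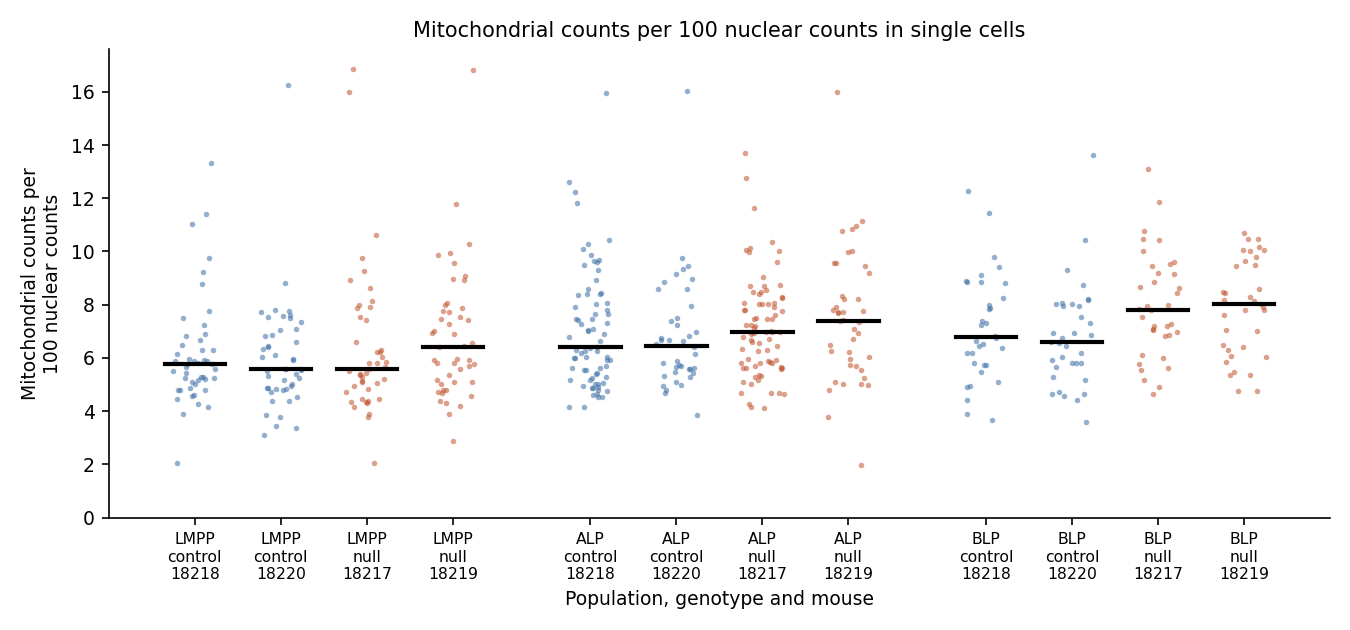
Mitochondrial counts per 100 nuclear counts in each of the 561 kept cells (points), by population, genotype and mouse, with black bars at the median of each mouse. Medians lie at 5.57 to 6.41 in LMPPs and 6.60 to 8.02 in BLPs, while single cells overlap widely between all groups.

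Against the spike-in RNA added to each well, ALPs stood highest. The median cell had 0.511 ± 0.108 mitochondrial counts per spike-in count in LMPPs (SD, n = 4 mice), 0.659 ± 0.114 in ALPs and 0.546 ± 0.152 in BLPs. In control mice 18218 and 18220 the medians were 0.618 and 0.422 in LMPPs, 0.826 and 0.597 in ALPs, and 0.683 and 0.361 in BLPs. In null mice 18217 and 18219 they were 0.592 and 0.414, 0.638 and 0.577, and 0.659 and 0.483. The ALP value was above the LMPP value in 4 of 4 mice (1.30-fold, exact p = 0.13, adjusted p = 0.625), whereas the BLP value was above the ALP value in 1 of 4. Null and control mice overlapped in each population on this scale. Mice 18217 and 18218 were above mice 18219 and 18220 in all 3 populations, which are the pairs of mice that alternate in the table's header.

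Nuclear counts per spike-in count were lower in BLPs than in ALPs in 4 of 4 mice (0.781-fold, exact p = 0.13, adjusted p = 0.625), with 7.51 ± 2.41 in BLPs and 9.47 ± 2.39 in ALPs. In ALPs the nuclear value was 0.747-fold in null against control mice without overlap (12.9 and 8.94 in controls, 8.89 and 7.21 in null mice, exact p = 0.333). Between cells of a library the mitochondrial and nuclear counts per spike-in, on the log2 scale, correlated with Pearson's r of 0.743 to 0.919, and both share the same denominator.

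**Figure D3:**
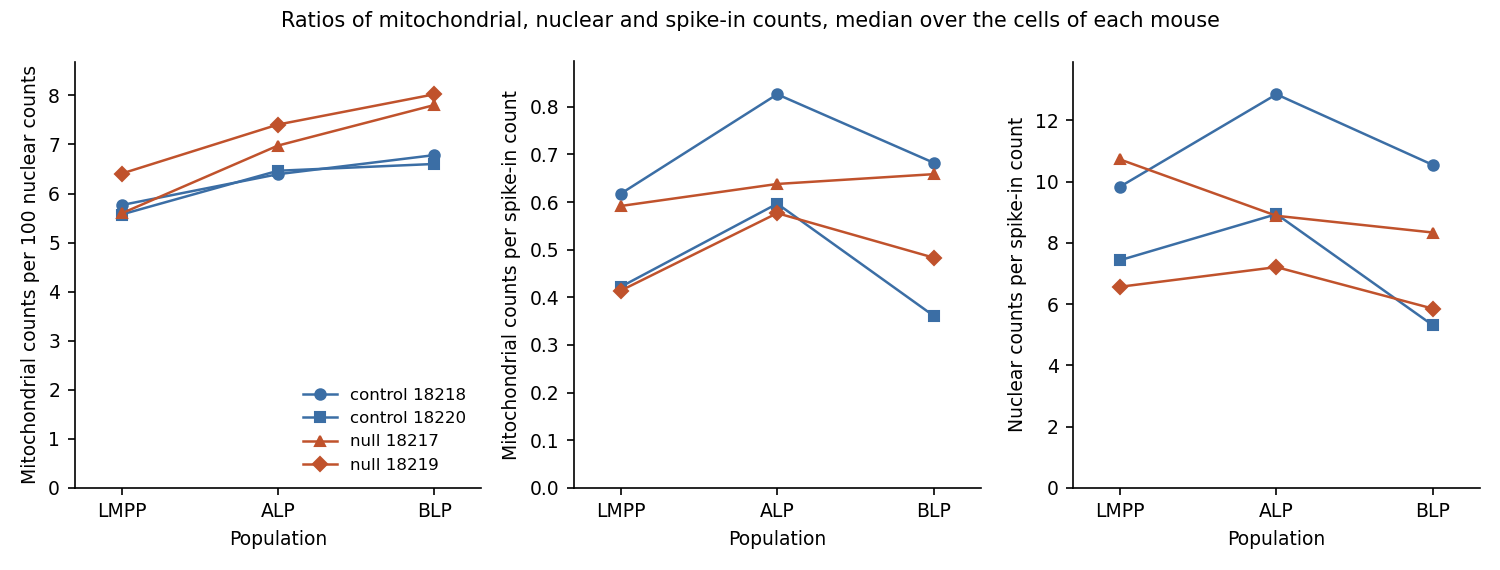
Median over cells of mitochondrial counts per 100 nuclear counts (left), mitochondrial counts per spike-in count (middle) and nuclear counts per spike-in count (right), for each mouse across the 3 populations. Lines join the populations of a mouse. The left ratio is higher at each step in all 4 mice, and the middle one is highest in ALPs in 3 of 4.

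The ratio was also compared by proliferation. Mki67 marks cycling cells, and cells with a Mki67 read after thinning were set against cells without one within each mouse and population. Mitochondrial counts per 100 nuclear counts in cells with reads were 0.960-fold in LMPPs, 1.02-fold in ALPs and 0.965-fold in BLPs. The ratio was higher in cells with reads in 1 of 4 mice, 1 of 4 and 2 of 4. Exact permutation p was 0.375, 1 and 0.625 (adjusted p = 0.938, 1 and 0.938 over the 3 populations). The largest single difference, 0.37 on the log2 scale, was in ALPs of control mouse 18218.

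Gene by gene, no mitochondrial gene passed the threshold between null and control mice. In edgeR's quasi-likelihood test with Benjamini-Hochberg adjustment over all genes, 0 of 31 tested mitochondrial genes had an adjusted p under 0.05 in LMPPs, ALPs or BLPs. The share of all tested genes called was 0% in LMPPs, 0.00502% in ALPs and 0.01% in BLPs. Summed per mouse it was 0 of 32 mitochondrial genes and 0% of all genes. At an unadjusted p under 0.05 the mitochondrial counts were 0 in LMPPs, 1 in ALPs, 3 in BLPs and 1 per mouse. Of all tested genes, 6.76%, 4.50%, 8.83% and 7.04% had such a p, in the same order. DESeq2 called 0 mitochondrial genes in each of these comparisons. The 9 upper genes had a biological coefficient of variation between mice of 12.7% to 16.7%, against a common value of 86.9% over all genes.

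Among those 9 genes the log2 difference of null from control had a median of 0.05 in LMPPs, 0.18 in ALPs and 0.18 in BLPs, where all tested genes had medians of -0.02, 0 and -0.01. It was above 0 for 5, 8 and 8 of the 9. Scaled to the spike-ins these medians were 0.16, 0.01 and 0.35, with all genes at 0.09, -0.18 and 0.12. The mice did not overlap, with null higher, for 1 of the 9 genes in LMPPs, 6 in ALPs and 4 in BLPs. Such non-overlap was seen for 16.2%, 17.1% and 16.3% of all tested genes. In ALPs these were mt-Cytb, mt-Nd1, mt-Nd2, mt-Nd4, mt-Nd5 and mt-Nd6, and in BLPs mt-Nd4, mt-Nd6, mt-Rnr1 and mt-Rnr2. With null lower, the mice did not overlap for 0 of the 9 in any population, against 17.8% of all genes in LMPPs, 17% in ALPs and 17.1% in BLPs. The 9 genes are cut from shared precursors and vary less between mice than the common value. They are not independent observations, and the shares of all genes are no matched background for them.

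In BLPs the smallest adjusted p was that of mt-Rnr1 (ENSMUSG00000064337, chrM:70-1024, plus strand). Its BLP levels were 1822 and 1886 CPM in control mice 18218 and 18220 and 2627 and 2473 CPM in null mice 18217 and 18219. The log2 difference was 0.46 ± 0.16 (standard error), with adjusted p = 0.547 in edgeR. For mt-Rnr2 (ENSMUSG00000064339, chrM:1094-2675, plus strand) they were 37908 and 33145 CPM in controls and 41324 and 43977 CPM in null mice. That is a log2 difference of 0.26 ± 0.11 with adjusted p = 0.56 in edgeR. Both null mice lay above both controls for either rRNA. The gene mt-Co1 went the other way, at -0.10 ± 0.09 with overlapping mice.

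The light-strand gene mt-Nd6 (ENSMUSG00000064368, chrM:13552-14070), a membrane subunit of complex I, had the highest log2 difference of the 9 genes in ALPs. Its ALP levels were 519 and 480 CPM in control mice 18218 and 18220 and 623 and 652 CPM in null mice 18217 and 18219. In BLPs they were 614 and 548 CPM in controls and 781 and 709 CPM in null mice, and in LMPPs 441 and 358 CPM against 370 and 380 CPM. The log2 difference was 0.35 ± 0.14 in ALPs, 0.36 ± 0.14 in BLPs and -0.09 ± 0.14 in LMPPs, with edgeR adjusted p of 1, 0.56 and 0.96. Null and control mice were separate in ALPs and BLPs and overlapped in LMPPs. With strand unknown, reads of mt-Nd6 cannot be told from those of RNA opposite it.

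**Figure D4:**
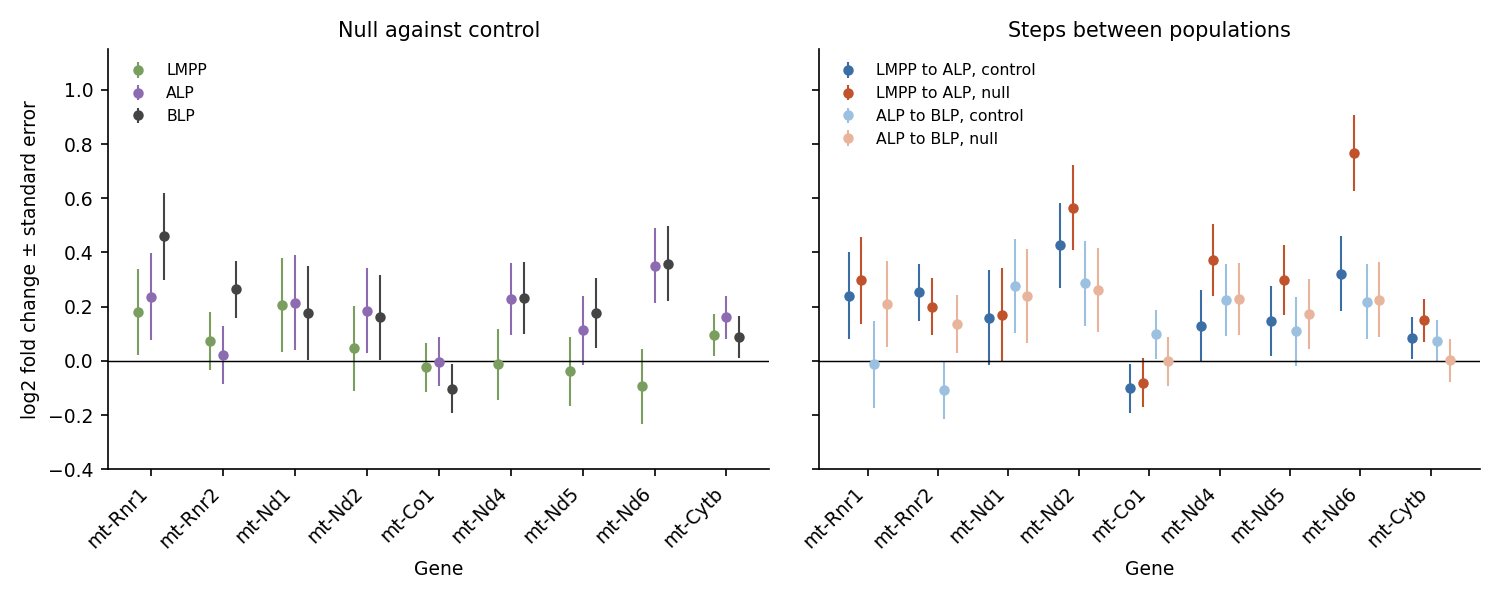
Log2 fold change with standard error from edgeR for the 2 rRNA genes and the 7 best-counted protein genes. The left panel gives null against control in each population and the right panel the steps between populations in each genotype. Most points lie above 0, mt-Nd6 in the LMPP to ALP step of null mice is highest at 0.77, and mt-Co1 is at or below 0 in that step.

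From LMPP to ALP the levels of most mitochondrial genes were higher, and none passed the threshold. In edgeR 0 of 31 were called in control mice and 0 of 31 in null mice, against 0.271% and 0.211% of all genes. At an unadjusted p under 0.05 there were 3 in control and 4 in null mice, against 8.77% and 8.78% of all genes. DESeq2 called 0 and 1 mitochondrial genes. For the 9 upper genes the median log2 change was 0.16 in control and 0.30 in null mice, with 8 of 9 above 0 in each, where all genes had medians of 0 and 0.0030. Scaled to the spike-ins the medians were 0.55 and 0.36, with all genes at 0.36 and 0.05. In all 4 mice 6 of the 9 were higher in ALPs, against 10.3% of all tested genes. Only mt-Co1 of the 9 was lower in all 4 mice, against 10.7% of all genes. Here too the 9 genes are not independent observations.

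The complex I genes mt-Nd6 and mt-Nd2 had the highest changes of the 9 in both genotypes. For mt-Nd6 the LMPP and ALP levels given above make log2 changes of 0.32 ± 0.14 in control and 0.77 ± 0.14 in null mice (edgeR adjusted p = 0.56 and 0.0979). The null value passed the threshold in DESeq2 (adjusted p = 4.09e-04) and with each cell thinned to 50000 counts (adjusted p = 0.0362 in edgeR), and its adjusted p ran from 0.276 to 0.981 when any 1 mouse was left out. The difference of the step between genotypes was 0.44 ± 0.20 (adjusted p = 0.951 in edgeR). For mt-Nd2 (ENSMUSG00000064345, chrM:3914-4951, plus strand), another membrane subunit of complex I, LMPP levels were 605 and 678 CPM in control mice 18218 and 18220 and 671.6 and 653.6 CPM in null mice 18217 and 18219. In ALPs they were 837 and 888 CPM in controls and 1004 and 956 CPM in null mice. Every ALP library was above every LMPP library. The log2 changes were 0.43 ± 0.16 and 0.56 ± 0.16 (edgeR adjusted p = 0.497 and 0.302).

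From ALP to BLP, 0 of 31 mitochondrial genes were called by edgeR in either genotype, against 0.00502% of all genes in control and 0% in null mice. At an unadjusted p under 0.05 there were 0 in each, and DESeq2 called 0. The median log2 change of the 9 upper genes was 0.11 in control and 0.21 in null mice, against -0.0030 and -0.0039 for all genes. Scaled to the spike-ins the direction turned in control mice, where the median was -0.37 with all genes at -0.53, and it was 0.03 with all genes at -0.20 in null mice. In all 4 mice 3 of the 9 were higher in BLPs (mt-Nd2, mt-Nd4 and mt-Nd6), against 7.59% of all genes. None of the 9 was lower in all 4, against 9.16% of all genes. For mt-Nd4 the ALP levels were 1238 and 1282 CPM in controls and 1543 and 1411 CPM in null mice, and the BLP levels 1449 and 1496 CPM and 1935 and 1524 CPM. Over both steps, 8 of the 9 genes were higher in BLPs than in LMPPs in all 4 mice, where 13% of all genes were. The other was mt-Co1, and 0 of the 9 were lower in all 4, against 13.9% of all genes. As in the genotype comparison, these counts of genes are not counts of independent observations.

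The tRNA genes were too sparse to follow the same way. Among the 16 tested, the median log2 change from LMPP to ALP was 0.08 in control and 0.53 in null mice, and from ALP to BLP 0.45 and 0.50. Their biological coefficient of variation was 42.9% for mt-Tp and 63.3% to 111% for the others. The levels of mt-Tp were 7.66 and 13.6 CPM in LMPPs of control mice 18218 and 18220 and 9.13 and 9.85 CPM in null mice 18217 and 18219. In ALPs they were 15.2 and 10.0 CPM and 15.6 and 13.0 CPM, and in BLPs 19.8 and 17.2 CPM and 22.6 and 18.3 CPM. Each mouse was higher in BLPs than in ALPs. Null LMPPs had 7 tRNA genes below both control mice, namely mt-Ta, mt-Tc, mt-Te, mt-Tl1, mt-Tm, mt-Tn and mt-Tq, while 17.8% of all genes lay that way. These tRNA genes share precursors as well and are not independent observations.

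Within the mitochondrial counts, mt-Nd6 and mt-Nd2 took a larger share and mt-Co1 a smaller one in ALPs and BLPs than in LMPPs, in each of the 4 mice. The share of mt-Nd6 was 0.763% and 0.691% in LMPPs of control mice 18218 and 18220 and 0.678% and 0.629% in null mice 18217 and 18219. In ALPs it was 0.839% and 0.768% in controls and 0.986% and 0.973% in null mice, and in BLPs 0.966% and 0.915% against 1.10% and 1.00%. The share was higher at each step in 4 of 4 mice. By these summed counts null mice lay below controls in LMPPs and above them in ALPs and BLPs. From LMPP to BLP the log2 change was 0.53 ± 0.18 (SD, n = 4 mice). Taken as the median over cells, the LMPP to ALP step of this share was up in 3 of 4 mice, with mouse 18218 at 0.744% and 0.721%. By that median the genotypes overlapped in LMPPs, at 0.744% and 0.619% in control mice and 0.677% and 0.601% in null mice.

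The share of mt-Nd2 was higher in ALPs than in LMPPs in 4 of 4 mice, by 0.31 ± 0.13 on the log2 scale. It was 1.05% and 1.31% in control LMPPs, 1.23% and 1.08% in null LMPPs, 1.35% and 1.42% in control ALPs and 1.59% and 1.43% in null ALPs. The share of mt-Co1 (ENSMUSG00000064351, chrM:5328-6872, plus strand) was lower in ALPs in 4 of 4 mice, going from 13.5% and 13.3% to 11.1% and 10.9% in controls and from 13.4% and 11.9% to 10.4% and 10.6% in null mice. That was a log2 change of -0.27 ± 0.08 (SD, n = 4 mice). Its level in CPM differed by -0.09 on the log2 scale. The share of mt-Rnr2 moved by 0.05 ± 0.05. From LMPP to BLP the mt-Co1 share changed by -0.34 and -0.02 (log2) in control mice 18218 and 18220. In null mice 18217 and 18219 it changed by -0.51 and -0.27. Mouse 18220 was thus near its LMPP share in BLPs, after a change of 0.26 from ALP to BLP. These shares add up to a whole, so a lower share of one gene raises the others.

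**Figure D5:**
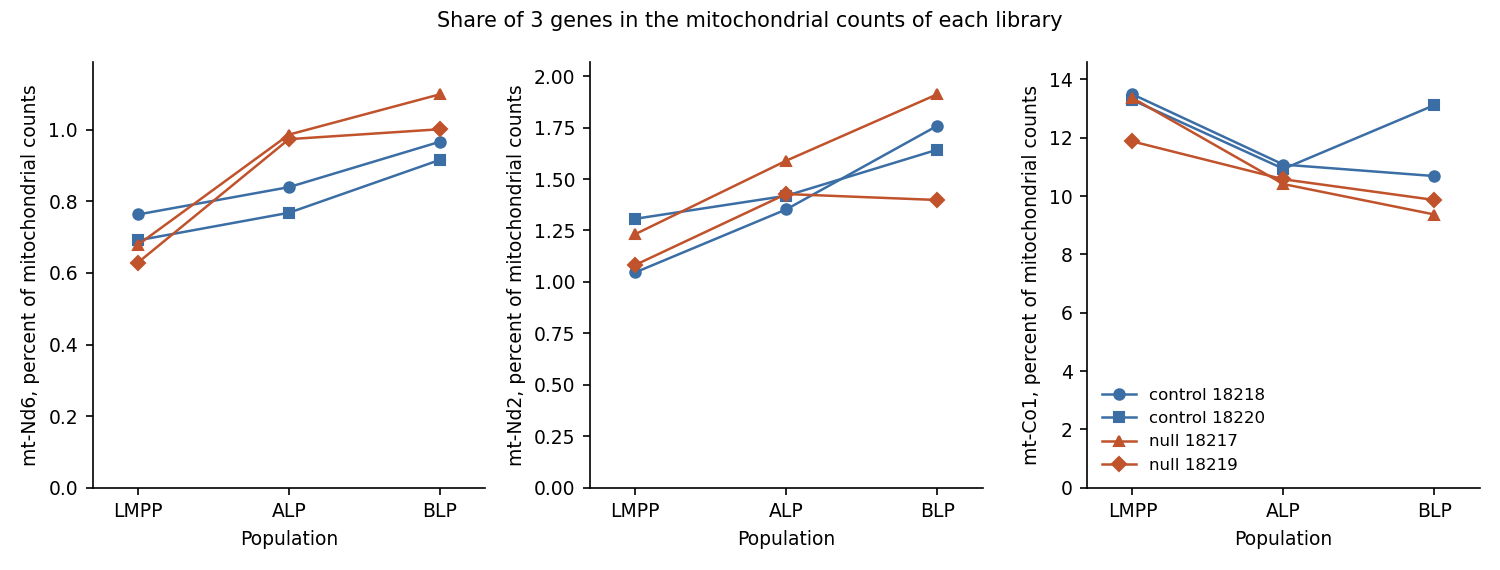
Percent of mitochondrial counts from mt-Nd6 (left), mt-Nd2 (middle) and mt-Co1 (right) in each of the 12 libraries, with lines joining the populations of a mouse. The mt-Nd6 share is higher at each step in all 4 mice, and the mt-Co1 share is lower in ALPs than in LMPPs in all 4.

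The genotypes were also compared in their steps. In edgeR 0 of 31 mitochondrial genes differed between genotypes in the LMPP to ALP step and 0 of 31 in the ALP to BLP step, with 0% of all genes called in either. At an unadjusted p under 0.05 there were 0 in each, against 5.25% and 6.38% of all genes, and DESeq2 called 0 mitochondrial genes. The smallest adjusted p of a mitochondrial gene were 0.951 for mt-Nd6 in the first step and 0.858 for mt-Rnr2 in the second.

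Nuclear genes that serve the mitochondrial genome were counted as 5 lists. The list for transcription and genome maintenance (18 of 19 names tested) had 0 members called in any of the 10 comparisons, as had RNA processing and stability (26 of 27), regulators such as Ppargc1a and Nrf1 (8 of 8), and the mitochondrial ribosome (82 of 83). Of all tested genes, 0% to 0.271% were called in these comparisons, so a count of 0 in a list is near the background. From LMPP to ALP the median log2 change was -0.11 in control and 0.0036 in null mice for transcription and genome maintenance. It was 0.03 and -0.07 for RNA processing and stability, 0.11 and -0.03 for regulators, and -0.17 and -0.08 for the ribosome. In BLPs the null to control median was -0.29 for transcription and genome maintenance, -0.29 for RNA processing and stability, 0.14 for regulators and -0.05 for the ribosome.

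The single genes had wider errors than the 9 mitochondrial ones. Tfam, which packs mitochondrial DNA, had a mean of 113 CPM (48.4 to 163). Its log2 difference between null and control was 0.16 ± 0.42 in ALPs and 0.31 ± 0.43 in BLPs. Polrmt, the polymerase, had a mean of 20.2 CPM (9.52 to 37.4). Lrpprc and Slirp, which together stabilise mitochondrial mRNA, had means of 54.1 and 47.4 CPM, and neither had an unadjusted p under 0.05 in any comparison. Mtpap, the mitochondrial poly(A) polymerase, stood at 97.0 ± 1.76 CPM in control and 58.6 ± 2.93 CPM in null BLPs (SD, n = 2 mice). Its log2 difference was -0.73 ± 0.26 (edgeR adjusted p = 0.555). Hsd17b10, a subunit of the mitochondrial RNase P, was at -0.91 ± 0.25 and -0.90 ± 0.25 from LMPP to ALP in control and null mice (edgeR adjusted p = 0.305 and 0.293). Mterf4, a factor in assembly of the mitochondrial ribosome, was at 2.72 ± 0.58 from ALP to BLP in control mice (edgeR adjusted p = 0.422). Ptcd2 was at -1.15 ± 0.28 from LMPP to ALP in null mice (edgeR adjusted p = 0.227). In null against control LMPPs, Polg, the mitochondrial DNA polymerase, was at -1.89 ± 0.52 and the rRNA methyltransferase Mrm1 at -1.40 ± 0.37 (edgeR adjusted p = 0.641 and 0.628).

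Of the nuclear genes of the respiratory chain, 104 of 109 were tested, and Cox6a2 alone rose, as 1 of 104 from LMPP to ALP in either genotype, where 0.271% of all genes were called in control and 0.211% in null mice. In both genotypes 30 to 36 of the 104 were higher and 68 to 74 lower in ALPs than in LMPPs, with medians of -0.14 in control and -0.12 in null mice. Cox6a2 encodes the heart and muscle form of a small complex IV subunit. Its LMPP levels were 4.17 and 3.63 CPM in control mice 18218 and 18220 and 19.4 and 10.4 CPM in null mice 18217 and 18219. In ALPs they were 264 and 600 CPM in controls and 187 and 279 CPM in null mice, and in BLPs 419 and 775 CPM and 521 and 440 CPM. Every ALP and BLP library was above every LMPP library. The log2 change from LMPP to ALP was 6.79 ± 0.59 in control mice (edgeR adjusted p = 0.00376) and 3.97 ± 0.52 in null mice (adjusted p = 0.025). With mouse as a paired block the null value was 4.01 with adjusted p = 0.0619, and the control value 6.65 with adjusted p = 0.0243. Leaving out any 1 mouse ended both calls. The null call was also lost with spike-in library sizes and with a block for the column order. Of 15 settings, 11 called the control change and 7 the null change. Over these settings log2 changes ran from 5.96 to 7.36 in control and 3.28 to 4.75 in null mice. In LMPP libraries a single cell held 26.8% to 46.5% of the Cox6a2 reads. That share was 41.1% in BLPs of control 18220 and 6.05% to 19.5% in the other ALP and BLP libraries. The difference of the step between genotypes was -2.83 ± 0.66 (edgeR adjusted p = 0.941). Siglech and Bst2, markers of plasmacytoid dendritic cells, summed to 142 to 180 CPM in LMPPs, 130 to 353 CPM in ALPs and 485 to 1012 CPM in BLPs, and their part in the Cox6a2 level was not tested.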

How the data were processed

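Single bone marrow cells were sorted 1 per well, amplified by a published full-length protocol (Picelli) with an Illumina XT kit and sequenced on an Illumina HiSeq machine, per the labels' protocols. As deposited, the table holds raw read counts per gene. The authors used GSNAP, HTSeq 0.5.3p3 and build mm10, per the submitters' processing notes. Annotation release, strand, read length and spike-in dilution were not given in the labels. There are no molecular identifiers, so counts are reads, not molecules.

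Gene symbols came from GENCODE M21 (GRCm38), which named 45143 of 46078 genes. Of all entries in the table, 43.2% were genes, 6.13% the 92 spike-ins, 6.08% ambiguous, 11.6% without a feature and 33.0% not aligned. Multiply aligned reads were listed at 0. Summary entries and spike-ins stayed out of library sizes. Kept cells were summed per mouse and population, since the mouse is the replicate. Counts were tested with edgeR 4.0.16 (R 4.3.3): TMM, filterByExpr, quasi-likelihood test, Benjamini-Hochberg adjustment over all 19903 genes (21047 in the fit per mouse), threshold 0.05. Standard errors are the log2 change divided by the root of F, an approximation. Ratios are medians over cells, tested by exact two-sided permutation over mice, adjusted over 5 comparisons per ratio (3 for Mki67). Sequences and 50-base matches came from GENCODE transcripts. The edgeR script was tested on simulated data.

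The populations of a mouse are paired, since they came from the same animal. Deviations of same-mouse libraries from their group means correlated at r = 0.0341 to 0.0694 across genes, which are not independent. Alternatives were DESeq2 1.42.0, no filter, other cell limits, other library sizes, thinning to 50000 counts, leaving out each mouse and a mouse block. A block for the column order, a fit that leaves out the ALPs of mice 18219 and 18220, and the depth range were chosen after seeing the data.

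Named were all protein and rRNA genes, the 6 highest tRNA genes, Tfam, Polrmt, Lrpprc, Slirp, Mtpap and list members of smallest p, of which only some are printed. Others were named after their values were seen where a count of non-overlap is listed. The members and lists were chosen with earlier results of these data known.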

Additional observations from a re-analysis of the deposited data

Results flagged for a closer look

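The share of mt-Nd4 in summed mitochondrial counts differed in direction between genotypes from LMPP to ALP. It changed by -0.09 and -0.0071 (log2) in control mice 18218 and 18220 and by 0.19 and 0.19 in null mice 18217 and 18219, a difference of 0.24. The share of mt-Co2 from ALP to BLP changed by 0.18 and 0.30 in control and by -0.04 and -0.30 in null mice, a difference of -0.414. The share of mt-Atp6 from LMPP to ALP changed by 0.10 and 0.02 in control and by -0.15 and -0.02 in null mice, a difference of -0.143. These differences of shares were not tested, and each rests on 2 mice against 2. The control direction of mt-Nd4 rests on -0.0071 in mouse 18220, and by the median over cells its share went from 1.98% to 2.03% in that mouse. Of the stretches of 50 bases in these genes, 62.2% of mt-Nd4, 100% of mt-Co2 and 99.5% of mt-Atp6 are shared with annotated nuclear copies, and the levels of mt-Co2 and mt-Atp6 split between mice 18217 and 18218 and mice 18219 and 18220.

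The 111 cells outside the limits entered the comparisons only where all cells were taken as an alternative. They had a mitochondrial median of 63.9% of gene counts, and 91 of them exceeded 20%, the limit itself. Their median nuclear count was 14650, and spike-ins made up a median of 77.1% of their counts against 9.92% in kept cells. Mitochondrial counts per spike-in count were 0.208 in these cells and 0.573 in kept cells, while nuclear counts per spike-in count were 0.0911 and 8.46. The mix of genes was close to that of kept cells for mt-Rnr2 (57.2% and 59.2% of mitochondrial counts) and mt-Nd6 (0.765% and 0.856%), and higher for mt-Nd1 (9.05% and 6.57%). By mouse, ALPs outside the limits numbered 10 in control 18218, 44 in control 18220, 5 in null 18217 and 42 in null 18219, with median mitochondrial shares of 51.1%, 77.3%, 44.1% and 65.1%.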

How the results depend on the processing

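The count of mitochondrial genes called was 0 in all 10 comparisons under each setting run, leaving out each mouse (0 to 0) and the replicate block included, except in null mice from LMPP to ALP, where mt-Nd6 made it 1 with thinned cells and 1 with DESeq2. With the replicate block, which pairs the libraries of a mouse, mt-Nd6 there had a log2 change of 0.766 (adjusted p = 0.113), and the number of mitochondrial genes called was 0. Over all genes the block gave 32 calls from LMPP to ALP in control and 22 in null mice, against 54 and 42 without it. DESeq2 called far more genes than edgeR: 495, 271 and 800 for null against control in LMPPs, ALPs and BLPs (edgeR 0, 1 and 2), 1005 per mouse (0), 920 and 926 from LMPP to ALP in control and null mice (54 and 42), 595 and 448 from ALP to BLP (1 and 0), and 239 and 352 for the differences of the steps (0 and 0). Scaling to the spike-ins left 16 and 7 calls from LMPP to ALP.

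For mitochondrial counts per 100 nuclear counts (log2), the LMPP genotype difference of 0.079 became -0.0135 in cells of 500000 to 3000000 nuclear counts and -0.0186 to 0.177 without 1 mouse, below 0 without 18219. The ALP genotype difference of 0.161 became 0.0838 as a ratio of summed counts and -0.953 over all cells, and the BLP one of 0.242 became 0.143 in that depth range. LMPP to ALP moved from 0.223 to 0.985 over all cells, and ALP to BLP from 0.0982 to 0.0194 as summed counts and -0.644 over all cells. For mitochondrial counts per spike-in count, the LMPP genotype difference of -0.0447 became 0.178 summed and 0.0118 in the depth range. LMPP to ALP (0.376) became -0.0796 and ALP to BLP (-0.302) became 0.18 over all cells. For nuclear counts per spike-in count, LMPPs moved from -0.0273 to 0.0963 summed and 0.0189 in the depth range, ALPs from -0.421 to 1.61 over all cells, and BLPs from -0.0991 to 0.187 summed. LMPP to ALP (0.129) became -1.34 and ALP to BLP (-0.357) became 1.13 over all cells. Without 1 mouse, genotype differences per spike-in ran from -0.319 to 0.23 (LMPP), -0.446 to 0.024 (ALP) and -0.275 to 0.643 (BLP) for mitochondrial counts, and from -0.381 to 0.327 (LMPP) and -0.594 to 0.396 (BLP) for nuclear counts. For cells with Mki67 reads the ALP difference of 0.0278 became -0.0371 with at least 10 unthinned reads and -0.0874 to 0.0845 without 1 mouse (below 0 without 18218), and the BLP one ran from -0.0942 to 0.00719. The cause of these changes was not tested, apart from the use of all cells, which adds the 111 cells outside the limits.

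With 2 mice per genotype the smallest p of a ratio is 0.333. Reads without molecular identifiers and the nuclear copies limit what the levels of mt-Co2, mt-Co3, mt-Atp6, mt-Nd3 and mt-Nd4l mean. Copies of mt-Atp8 outside the annotation were not searched for, so its level is uncertain too. Unknown strand limits what the levels of mt-Nd6 and the light-strand tRNAs mean, and the tRNA genes rest on few reads.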
